A study of Homo sapiens with 4 samples.

Results

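The 10 genes described here are SLCO4C1, SLCO4A1, SLCO1B1, SLCO1B3, SLCO1C1, SLCO2A1, SLCO2B1, SLCO3A1, SLCO5A1 and SLCO6A1, members of the SLCO family of organic anion transporters. They are 10 of 18417 genes that had a probe set annotated to a single gene. The list was drawn up with results of these arrays known: SLCO4C1 had been seen to differ in opposite directions in the 2 cell lines, so its differences with FBP1 are given as a description. Members were thus chosen by family name and by the FBP1 minus control differences on these 4 arrays. Each gene is represented by its probe set with the highest mean over the arrays, and no intensity filter was applied.

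The samples came from MDA-MB231 and Hs578T, established human lines of breast cancer, both basal-like by their labels. FBP1 is the gene of fructose-1,6-bisphosphatase, an enzyme of gluconeogenesis. It was introduced into both lines and stable clones were taken; the labels do not say how many clones were used or what the control cells carried. The 4 groups were the MDA-MB231 control, MDA-MB231 expressing FBP1, the Hs578T control and Hs578T expressing FBP1, with 1 array each, and all cells grew in DMEM/F12 with serum and were harvested in log phase. No replicate arrays exist to check a difference within a line, and the precision of every value is limited by there being 4 arrays in all.

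SLCO genes encode OATP proteins, membrane carriers that take up large amphipathic anions such as bile acids, conjugated steroids, thyroid hormones, prostaglandins and many drugs without using ATP. OATP1B1 and OATP1B3 are the uptake carriers of the hepatocyte, OATP1C1 carries thyroxine at the blood-brain barrier, OATP2A1 is the prostaglandin transporter, and OATP4C1 is known from the basolateral side of the kidney tubule, where it takes up digoxin and thyroid hormone. Several OATPs, among them OATP2B1, OATP3A1 and OATP4A1, take up estrone sulfate and have been studied in breast cancer for that reason.

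The region just before the start of SLCO4C1 is shown because, of the members, this gene had the largest difference with FBP1. The run is the 250 bases before the start in RefSeq (GRCh38.p14), at chr5:102296285-102296534 on the minus strand, 5′ to 3′ on the gene's strand; RefSeq windows were matched for 5 of the 10 members.
SLCO4C1: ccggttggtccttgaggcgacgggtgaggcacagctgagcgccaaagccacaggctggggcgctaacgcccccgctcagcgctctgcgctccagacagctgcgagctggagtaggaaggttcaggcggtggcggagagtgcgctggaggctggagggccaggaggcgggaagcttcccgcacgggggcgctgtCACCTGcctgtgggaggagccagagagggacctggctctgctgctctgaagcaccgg
Capitals mark matches to the letters searched, on either strand. They mark CACCTG, the reverse complement of CAGGTG, an E-box form bound by Snail and other E-box factors, which begins 57 bases before the start; 17.5% of the 35116 RefSeq windows of 250 bases hold this motif. The letters GCGTG, the core of the response element of the aryl hydrocarbon receptor AHR, were not in the SLCO4C1 window, and 32.2% of windows hold them on either strand. The SLCO4C1 window was 69.2% G or C with 18 CpG pairs; the median share of G or C over all windows was 58.0%.

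The introduced gene was checked first. The log2 level of FBP1 itself went from 9.83 (control) to 13.07 (FBP1) in MDA-MB231 and from 6.35 to 13.35 in Hs578T, so each FBP1 array matched its label. Median log2 levels over all probe sets were 7.83 to 7.86 on the 4 arrays. The defining markers of the labelled cell type were mixed: VIM (13.71 to 13.72), CD44 (13.68 to 13.88), CAV1 and EGFR were bright on every array, whereas the basal keratin gene KRT5 stayed at 6.80 to 6.93. The other basal keratin gene of the list, KRT14, was at 8.64 (control) and 8.45 (FBP1) in MDA-MB231 and at 8.85 and 9.62 in Hs578T, and was the 1 marker of this list to differ by 1.5-fold with FBP1 (1.70-fold higher in Hs578T). The deposited values carry no detection call, so 341 olfactory receptor genes, which such cells are not known to use, served as a yardstick for dim signals. Their 95th percentile lay between 7.04 and 7.34 log2 on the 4 arrays, and values below it are called within the olfactory receptor range, although single genes of this family reached 9.90. KRT5 and the estrogen receptor gene ESR1 (6.64 to 6.80) were below the 95th percentile throughout. Hepatocyte genes were also looked at because 2 members are liver transporters, and 3 of the 6 were below that percentile on all arrays. ALB was at 5.15 to 5.35 and AHSG at 5.49 to 5.68, whereas APOA1 was at 8.14 to 8.30. SERPINA1, the gene of alpha-1 antitrypsin, was at 9.397 and 9.185 in MDA-MB231 and at 7.39 and 7.53 in Hs578T.

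The members formed bright, dim and mixed groups when set beside that yardstick on each array. SLCO4A1, SLCO1B3, SLCO2A1 and SLCO3A1 were above the 95th percentile of the olfactory receptor genes on all 4 arrays. SLCO1B1, SLCO1C1, SLCO2B1 and SLCO6A1 were above it on 0 of the 4. SLCO4C1 was above it on 3 arrays, the exception being the Hs578T control, and SLCO5A1 on 2, both of MDA-MB231. These are positions of each probe set relative to the yardstick; probe sets differ in sensitivity, so the levels do not rank the genes against each other.

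**Figure D1:**
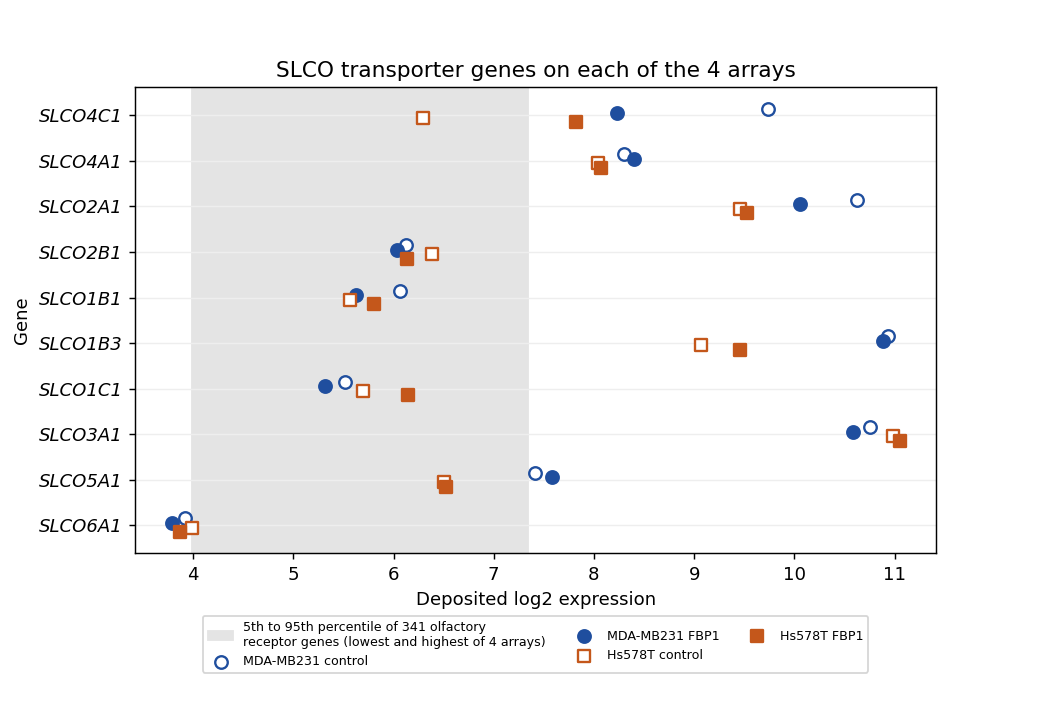
Deposited log2 expression (horizontal axis) of the 10 SLCO genes (rows) on each of the 4 arrays, 1 point per array; circles are MDA-MB231, squares Hs578T, open symbols control and filled symbols FBP1. The grey band runs from the 5th to the 95th percentile of the olfactory receptor genes (lowest and highest of the 4 arrays); SLCO4C1 has its Hs578T control value (6.29) inside the band and its other values outside, and SLCO1B1, SLCO1C1, SLCO2B1 and SLCO6A1 have none to the right of the band.

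SLCO4C1 had the widest spread over the arrays, 3.44 log2 units. From high to low, its log2 level was 9.73 in control MDA-MB231 cells, 8.23 in FBP1-expressing MDA-MB231, 7.82 in FBP1-expressing Hs578T and 6.29 in control Hs578T cells. The control arrays were the extremes, and the FBP1 arrays lay next to each other between them. In MDA-MB231 the FBP1 array was 1.51 log2 units below control, which is 2.85-fold lower. In Hs578T it was 1.53 log2 units above control, which is 2.89-fold higher; this fold rests on a control value within the olfactory receptor range, and it is uncertain for that reason. The gap between the lines was thus 3.44 log2 units (10.8-fold) between the control arrays and 0.40 (1.32-fold) between the FBP1 arrays, MDA-MB231 being higher in both. Without replicate arrays, it is not known whether the gap of 0.40 exceeds the spread between cultures. In RNA from whole cultures, fewer cells that express a gene and less RNA per cell cannot be told apart. Because stable clones were taken, a difference with FBP1 and a difference between clones cannot be told apart either.

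A second probe set is annotated to SLCO4C1, through a single accession. Its log2 levels were 5.77 (control) and 5.76 (FBP1) in MDA-MB231, and 5.58 (control) and 6.03 (FBP1) in Hs578T. All 4 values lie within the olfactory receptor range. It differed with FBP1 by −0.01 in MDA-MB231 and by 0.45 in Hs578T, so it showed no decrease of the size seen in MDA-MB231 with the first probe set, which is annotated through 3 accessions. With both probe sets averaged, the SLCO4C1 differences were −0.76 and 0.99, each under 2-fold, and the gap between the lines was 0.94.

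The genes whose pattern over the 4 arrays lay nearest to that of SLCO4C1 were taken by Euclidean distance between log2 levels after each gene's mean was removed. The 5 nearest of the other genes were SERPINB4 (distance 0.76), a serpin of squamous epithelium, MAL2 (0.97), which acts in transport of vesicles to the apical membrane, LINC01356 (1.03), RNU5F-1 (1.03), a spliceosomal RNA gene, and PCSK5 (1.08), a proprotein convertase. SERPINB4 stood at 7.38 (control) and 6.05 (FBP1) in MDA-MB231, and at 4.56 and 5.04 in Hs578T. All but the first of these lie within the olfactory receptor range, as do the Hs578T values of LINC01356, RNU5F-1 and PCSK5. The gaps of these genes are uncertain for that reason. MAL2 stood at 12.86, 12.44, 9.39 and 10.89 in the same order of arrays. In each of the 5 the gap between the lines was smaller in the FBP1 arrays than in the controls. The 5 were chosen for nearness to SLCO4C1, whose gap is smaller in the same way, so nothing is read from it. In SERPINB4 the gap was 2.81 in the controls and 1.02 with FBP1, and in MAL2 3.48 and 1.56. By distance between the differences with FBP1 alone, the nearest genes were TNFRSF11B, which encodes the decoy receptor osteoprotegerin (−0.68 in MDA-MB231 and 0.90 in Hs578T), SERPINB4 (−1.32 and 0.47), MAL2 (−0.42 and 1.504), NKAIN3 (−0.40 and 1.42) and the phospholipase gene PLA2G4A (−0.37 and 1.21). None of these was as far from 0 in both lines as SLCO4C1, and of all 18417 genes SLCO4C1 was the 1 gene (0.00543%) with differences of at least 2-fold in opposite directions, which is the property that singled it out.

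**Figure D2:**
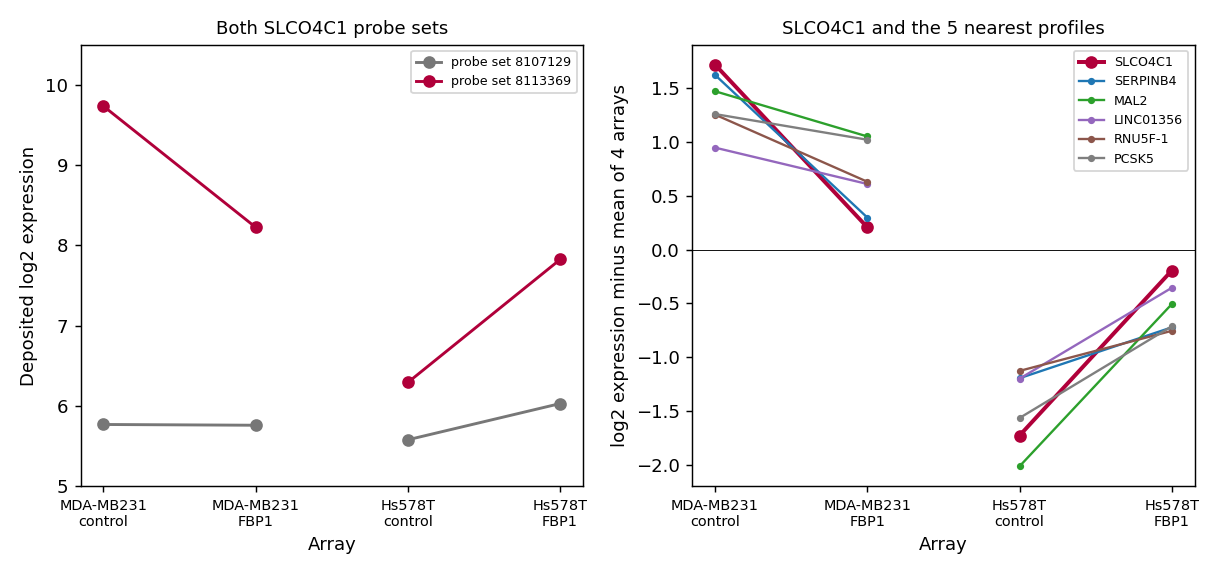
Left, deposited log2 expression of both SLCO4C1 probe sets on the 4 arrays. Right, log2 expression minus the gene's mean over the 4 arrays for SLCO4C1 and the 5 genes nearest to it; lines join the control and FBP1 arrays of a line, and SLCO4C1 goes from 9.73 to 8.23 in MDA-MB231 and from 6.29 to 7.82 in Hs578T.

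SLCO4C1 lies on chromosome 5 beside SLCO6A1, a family member known from testis. Of the 5 measured genes on each side of SLCO4C1 in RefSeq gene order, 0 of 10 differed by 1.5-fold with FBP1 in either line. Their differences ran from −0.29 to 0.35 in MDA-MB231 and from −0.36 to 0.57 in Hs578T. The nearest measured gene on one side was ST8SIA4, a polysialyltransferase gene, at −0.15 in MDA-MB231 and 0.57 in Hs578T, the latter close to the 1.5-fold size of 0.585. On the other side SLCO6A1 stood at −0.13 and −0.12, with levels of 3.92 and 3.78 in MDA-MB231 and 3.99 and 3.87 in Hs578T, and the amidating enzyme gene PAM followed at −0.13 and −0.36.

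**Figure D3:**
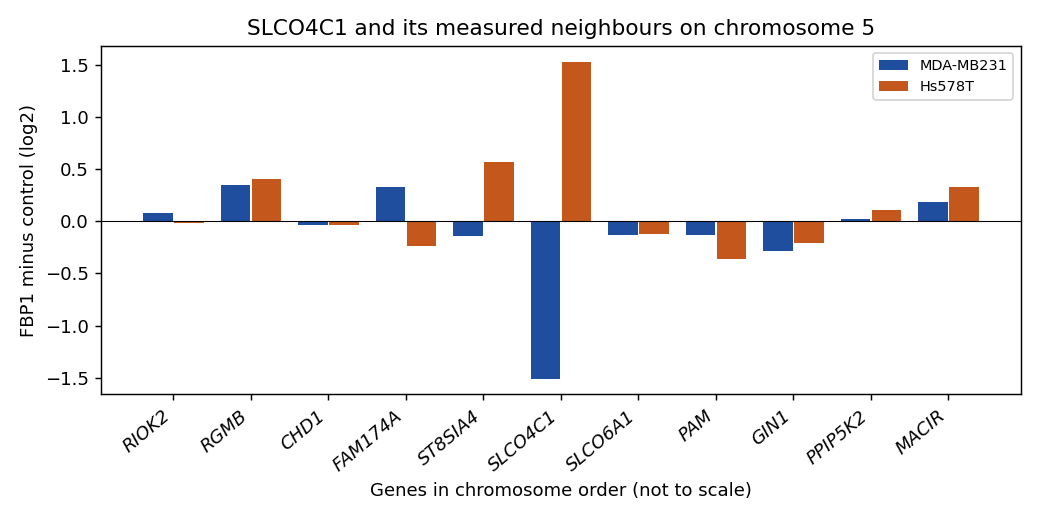
Difference in log2 expression between the FBP1 and control arrays (vertical axis, 1 array each) for SLCO4C1 and the 5 measured genes on each side of it, in chromosome order. SLCO4C1 stands at −1.51 (MDA-MB231) and 1.53 (Hs578T), while its neighbours lie between −0.36 and 0.57.

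The other 9 members differed less with FBP1. Over all genes, 0.690% differed by at least 1.5-fold either way in MDA-MB231 and 2.97% in Hs578T; of the members, SLCO4C1 alone did so, 1 of 10 in each line. At 2-fold the shares of all genes were 0.0652% and 0.695%, again with 1 of 10 members in each line. The members were chosen with these differences known, so nothing is read from the counts. The differences of the other 9 ran from −0.57 to 0.17 in MDA-MB231 and from −0.25 to 0.44 in Hs578T. The median over the 10 members was −0.15 in MDA-MB231 and 0.07 in Hs578T, against −0.0039 and 0.0261 over all genes. With FBP1, 6 members were below control in MDA-MB231 and above it in Hs578T, as were 27.9% of all genes, and 0 had the reverse. Of the other 4, 2 were above control in both lines and 2 below; 48.7% of all genes had opposite signs in the lines.

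Among the bright members, SLCO2A1 came closest to the 1.5-fold size. Its log2 level was 10.63 (control) and 10.06 (FBP1) in MDA-MB231, and 9.46 (control) and 9.53 (FBP1) in Hs578T. The MDA-MB231 control was the highest array, and the FBP1 array of that line was 1.48-fold lower. A decrease at least that large was found in 0.402% of all genes in MDA-MB231, and a difference of that size either way in 0.809%. SLCO2A1 is named here because its difference was the largest after SLCO4C1, with 1 array per group, so these shares are not a test.

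SLCO1B3, the hepatocyte bile acid and drug carrier, of which a shortened form is known from cancers, was bright in both lines. It stood at 10.93 (control) and 10.89 (FBP1) in MDA-MB231 and at 9.07 and 9.46 in Hs578T. Both MDA-MB231 arrays were above both Hs578T arrays, and the difference with FBP1 was −0.04 in one line and 0.40 in the other. Its paralog SLCO1B1, the carrier known for statin uptake in liver, stood at 6.06, 5.62, 5.57 and 5.81 in the same order, all within the olfactory receptor range, with differences of −0.44 and 0.24. The genes are similar in sequence and probes can bind both, so their values are uncertain; which SLCO1B3 transcript was measured was not tested.

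SLCO3A1, a widely expressed carrier of prostaglandins and thyroxine, was at 10.75 (control) and 10.58 (FBP1) in MDA-MB231 and at 10.98 and 11.05 in Hs578T. SLCO4A1, a widely expressed thyroid hormone carrier, was at 8.30, 8.40, 8.04 and 8.07. With FBP1, SLCO3A1 differed by −0.17 and 0.07 and SLCO4A1 by 0.10 and 0.02. SLCO5A1, an orphan member of the family, was at 7.41, 7.58, 6.51 and 6.53, so that the lines did not overlap.

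The remaining dim members were SLCO1C1 and SLCO2B1. SLCO1C1 was at 5.52 (control) and 5.31 (FBP1) in MDA-MB231 and at 5.70 and 6.14 in Hs578T. SLCO2B1, an uptake carrier of steroid sulfates and drugs in liver and gut, was at 6.13, 6.03, 6.39 and 6.13. At such levels the differences of SLCO1C1 (−0.21 and 0.44) and SLCO2B1 (−0.09 and −0.25) lie within the central 95% range of differences of the olfactory receptor genes, −0.41 to 0.453 in MDA-MB231 and −0.428 to 0.509 in Hs578T. SLCO1B1 was just outside that range in MDA-MB231, at −0.44, and inside it in Hs578T. SLCO1A2, a family gene outside the 10 listed, was at 6.22, 5.98, 5.03 and 5.26.

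**Figure D4:**
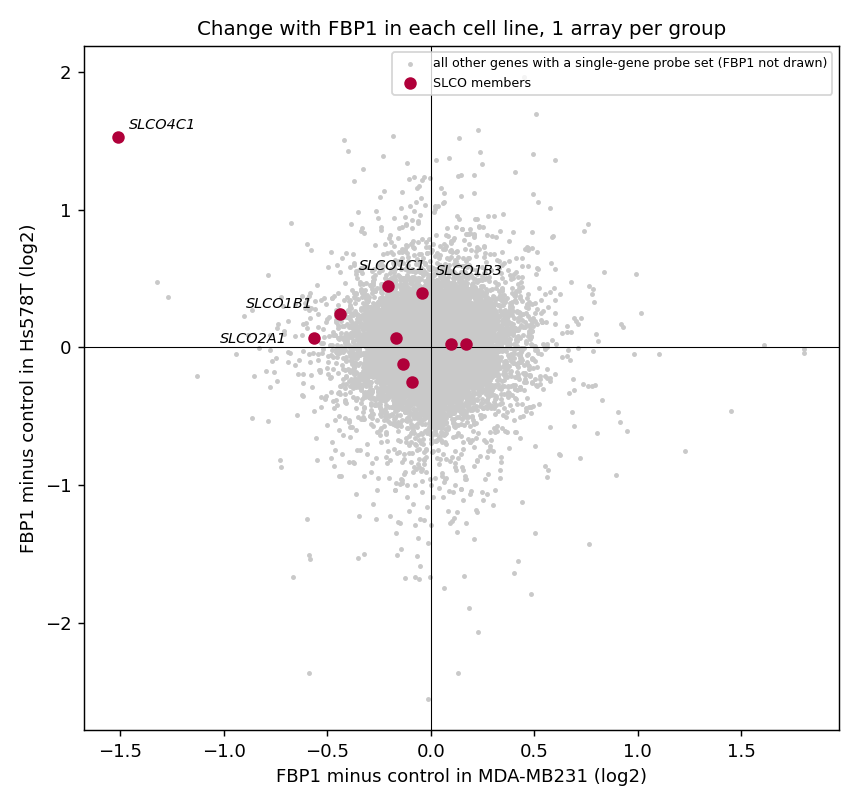
Difference in log2 expression between FBP1 and control arrays in MDA-MB231 (horizontal axis) and Hs578T (vertical axis); each point is a gene, grey for all genes other than FBP1 and red for the 10 SLCO genes. SLCO4C1 is at −1.51 and 1.53, away from all other genes in the upper left, and the other 9 lie within −0.57 to 0.17 and −0.25 to 0.44.

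The cell lines were compared with a test for 9 members. SLCO4C1 was fitted with the other genes, but its p and interval are not given, because the error of the fit is the disagreement between the line difference in the control arrays and that in the FBP1 arrays, and for SLCO4C1 this is the contrast it was chosen for. Levels differed between the lines in 4 of the other 9, with SLCO1B3, SLCO2A1 and SLCO5A1 higher in MDA-MB231 and SLCO3A1 higher in Hs578T (limma, Benjamini-Hochberg adjusted p under 0.05 over 18417 genes). The background was high: 36.0% of all genes were called, 19.0% as higher in MDA-MB231 and 16.9% as higher in Hs578T, so nothing particular to these genes is read from 4 of 9. The fit used all 4 arrays with a term for the construct. Its error is moderated over all genes and is not the spread of repeated cultures.

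SLCO1B3 had the largest called difference, 1.65 ± 0.13 log2 units (SE), or 3.13-fold, with adjusted p = 0.000289 (limma). It was higher in MDA-MB231 in the control pair (1.87) and in the FBP1 pair (1.43). SLCO5A1 was 0.98 ± 0.11 log2 units higher in MDA-MB231 (1.97-fold, limma adjusted p = 0.00104), by 0.90 in the control pair and 1.05 in the FBP1 pair, although its Hs578T values lie in the olfactory receptor range and the fold is uncertain. SLCO2A1 was 0.85 ± 0.16 log2 units higher in MDA-MB231 (1.80-fold, limma adjusted p = 0.00883), by 1.17 in the control pair and 0.53 in the FBP1 pair. SLCO3A1 was lower in MDA-MB231, at −0.35 ± 0.10 log2 units (limma adjusted p = 0.0408), and this call was lost when limma's variance prior had no intensity trend (adjusted p = 0.0546) or when all probe sets were fitted (0.0731).

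SLCO4C1 was on average 1.92 log2 units higher in MDA-MB231, the mean of unequal gaps of 3.44 in the control pair and 0.40 in the FBP1 pair. SLCO4A1 (0.29, adjusted p = 0.0761) and SLCO1C1 (−0.50, adjusted p = 0.0639) were not called by limma, with intervals of 0.04 to 0.55 and −0.92 to −0.09. For SLCO1B1, SLCO2B1 and SLCO6A1 the intervals included 0, at −0.27 to 0.58, −0.45 to 0.09 and −0.36 to 0.19. SLCO1A2 was higher in MDA-MB231 by 0.96 ± 0.14 log2 units (limma adjusted p = 0.00325), with all values in the olfactory receptor range.

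**Figure D5:**
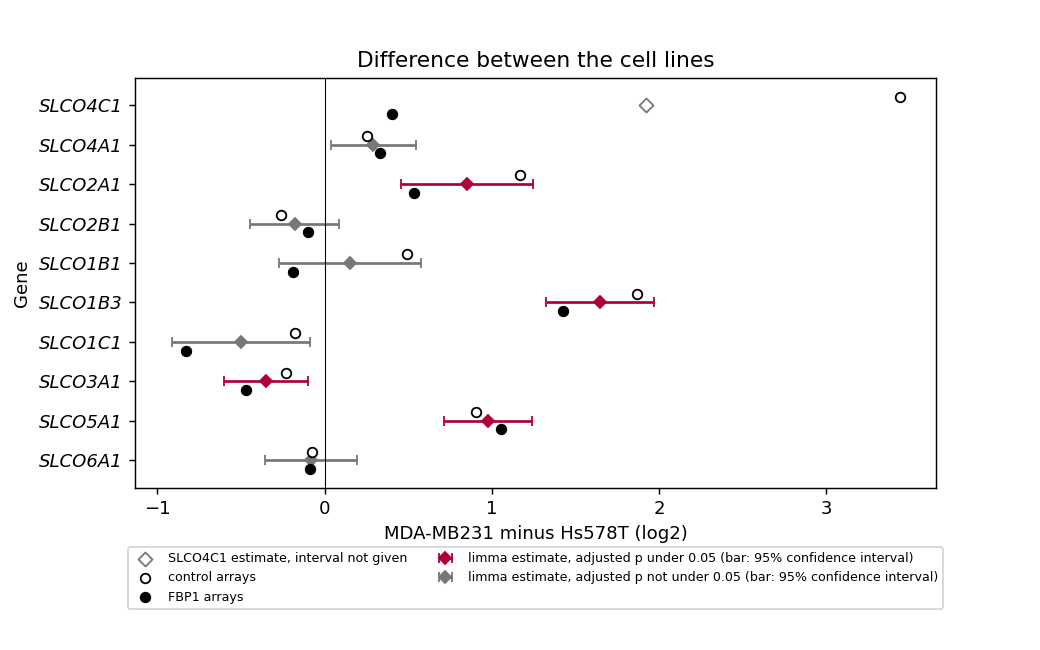
Log2 expression in MDA-MB231 minus Hs578T (horizontal axis) for the 10 SLCO genes; diamonds are limma estimates over the 4 arrays with 95% confidence intervals (an open diamond with no interval for SLCO4C1), red where adjusted p was under 0.05, open circles the control pair and filled circles the FBP1 pair. SLCO1B3, SLCO2A1 and SLCO5A1 lie to the right of 0 and SLCO3A1 to the left, and the SLCO4C1 pairs lie at 3.44 (control) and 0.40 (FBP1).

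Some markers of other cell types differed between the lines along with these genes. Of all genes, 19.0% were called higher in MDA-MB231 and 16.9% in Hs578T. Marker counts near those shares, such as 1 of 6, are not read as a result. All 5 fibroblast markers (FAP, PDGFRB, DCN, LUM and THY1) were called higher in Hs578T, their summed level being 9.07 to 9.26 log2 in MDA-MB231 and 13.73 to 13.8 in Hs578T. Of 8 luminal epithelial markers, 4 were called higher in MDA-MB231 and 1 in Hs578T. Their summed levels were 14.28 to 14.35 log2 in MDA-MB231 and 12.77 to 13.11 in Hs578T. KRT8 and KRT19 were the brightest of those higher in MDA-MB231. ERBB3 (6.29 to 7.03) was another of them, and PGR (5.61 to 6.36) was the 1 higher in Hs578T. Both lay within the olfactory receptor range on all arrays. Of 4 endothelial markers, 2 were called higher in MDA-MB231 and 0 in Hs578T. PECAM1 was higher by 1.61 (limma adjusted p = 0.000162). The other was KDR, and the Hs578T values of both lay within the olfactory receptor range. Summed levels were 9.52 to 9.614 log2 in MDA-MB231 and 8.807 to 8.893 in Hs578T. Of 4 leukocyte markers, 2 (CD14 and LYZ) were called higher in MDA-MB231. All values of LYZ (5.39 to 6.28) lay within the olfactory receptor range. Summed levels were 8.709 to 8.81 log2 in MDA-MB231 and 8.195 to 8.32 in Hs578T. PTPRC, which marks all leukocytes, was at 4.52 to 4.96. Of the 6 hepatocyte markers, 1 was called, SERPINA1, higher in MDA-MB231 by 1.83 (limma adjusted p = 0.000159), with summed levels of 10.23 to 10.37 and 9.708 to 9.782. The part of these markers in the line differences of the SLCO genes was not tested. With FBP1, fibroblast genes differed in each line in single cases, LUM by −1.13 in MDA-MB231 and FAP by −1.34 in Hs578T. The 4 kidney tubule markers measured, SLC34A1, LRP2, CUBN and SLC5A2, had a summed level of 9.001 to 9.083 log2 on all 4 arrays, with 0 differing by 1.5-fold in either line.

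Most other carriers of organic ions differed by less than 1.5-fold with FBP1, and those that passed this size did so in Hs578T. Of 19 SLC22 genes measured, which encode the organic anion and cation transporters of kidney and liver and the carnitine carriers, 0 differed by 1.5-fold in MDA-MB231 and 1 was lower in Hs578T, where 1.57% of all genes were lower by that size. That gene, SLC22A17, a lipocalin receptor gene, was at 8.56 and 8.43 in MDA-MB231 and at 9.64 and 8.87 in Hs578T. The median difference of the list was −0.00706 in MDA-MB231 and 0.0814 in Hs578T. Among 16 exporters, mostly of the ABC family, 0 differed by 1.5-fold in MDA-MB231, and in Hs578T 1 was higher and 1 lower, against 1.40% and 1.57% of all genes. ABCG2, the breast cancer resistance protein, which exports estrone sulfate, was at 9.18 (control) and 9.62 (FBP1) in MDA-MB231 and at 8.29 and 8.88 in Hs578T. It was thus higher with FBP1 by 0.44 and 0.59, in the same direction in both lines. SLC47A1, a proton-coupled exporter of organic cations, was above control by 0.43 in MDA-MB231, going from 7.62 to 8.05. In Hs578T it was below control by 0.66, going from 6.47 to 5.81. Both Hs578T values lie within the olfactory receptor range, so this difference is uncertain.

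Genes that make, sense and clear prostaglandins, the substrates of the SLCO2A1 product, were measured in full, 19 of 19. With FBP1, 0 differed by 1.5-fold in MDA-MB231, and 2 were higher in Hs578T, where 1.40% of all genes were higher by that size. These were PLA2G4A, which releases arachidonic acid, at 8.02 in the control and 9.23 with FBP1, and PTGER4, a prostaglandin E2 receptor gene, at 10.18 and 10.93. Between the lines, limma called 5 of the 19 higher in MDA-MB231 and 4 higher in Hs578T, against 19.0% and 16.9% of all genes. PTGES, the inducible prostaglandin E synthase, was higher in MDA-MB231 by 2.80 (limma adjusted p = 2.84e-05). PTGS2, the inducible cyclooxygenase, was higher there by 2.02 (limma adjusted p = 0.000117). HPGD, the enzyme that inactivates prostaglandins after uptake, stood at 8.23 and 7.77 in MDA-MB231 and at 6.80 and 6.99 in Hs578T, higher in MDA-MB231 by 1.11 (limma adjusted p = 0.00348). PTGR2 (1.58) and PTGES3 (0.29) were the others called higher in MDA-MB231, the direction of SLCO2A1. Higher in Hs578T were PTGIS, the prostacyclin synthase, whose difference of −4.23 (limma adjusted p = 5.19e-06) was the largest of the 19, PTGFR (−1.49), PLA2G4A (−1.45) and PTGER2 (−0.43). Values of HPGD in Hs578T, and of PTGIS and PTGFR in MDA-MB231, lie within the olfactory receptor range, so these gaps are uncertain. With FBP1 in MDA-MB231, HPGD was 0.46 lower and SLCO2A1 0.57 lower. The median difference of the 19 genes in that line was 0.1, with 10 above control and 9 below.

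Thyroid hormone genes were considered because SLCO4C1, SLCO4A1, SLCO3A1 and SLCO1C1 encode carriers of these hormones. Of 12 measured, 0 differed by 1.5-fold with FBP1 in either line, and the medians were 0.0512 in MDA-MB231 and 0.0311 in Hs578T. The largest was DIO2, which activates thyroxine, at −0.38 in Hs578T. Between the lines 4 of the 12 were called higher in MDA-MB231 and 2 in Hs578T, against 19.0% and 16.9% of all genes. The receptor gene THRB was higher in MDA-MB231 by 1.72 (limma adjusted p = 0.000141), as was the carrier gene SLC16A10 by 1.15 (0.000481). The Hs578T values of SLC16A10 lie within the olfactory receptor range. The 2 higher in Hs578T, SLC7A5 (−0.53) and SLC3A2 (−0.35), encode the light and heavy chains of an amino acid carrier that also takes up thyroid hormone. Of 12 genes of steroid sulfate handling, 0 differed by 1.5-fold with FBP1. STS, which encodes the sulfatase that frees estrone from its sulfate, was at 10.10 and 10.03 in MDA-MB231 and at 10.00 and 9.77 in Hs578T.

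The last lists held factors known to regulate SLCO genes in liver and kidney. AHR, whose response element is known to act on SLCO4C1 in kidney, was at 12.54 (control) and 12.38 (FBP1) in MDA-MB231 and at 13.06 and 13.09 in Hs578T. Of the 7 factors measured, 0 differed by 1.5-fold with FBP1, and PPARA had the largest difference, 0.23 and −0.28. Among 6 AHR target genes, 0 differed by 1.5-fold in MDA-MB231 and 1 was lower in Hs578T (1.57% of all genes), the cytochrome gene CYP1B1, at 9.23 in the control and 8.44 with FBP1. The 6 went several ways. CYP1B1 was 0.24 higher with FBP1 in MDA-MB231, the opposite of SLCO4C1 in both lines, as was TIPARP (0.26 and −0.19). CYP1A2 had the directions of SLCO4C1 (−0.09 and 0.22). CYP1A1 was higher in both lines, by 0.48 and 0.21, as was ALDH3A1 (0.20 and 0.10), and NQO1 was lower in both (−0.08 and −0.50). The part of AHR in the SLCO4C1 differences was not tested. Of the scaffold and sodium pump genes, 3 were measured, and ATP1B1 had the largest difference, 0.14 and −0.36.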

How the data were processed

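RNA of 4 samples, 1 array for each cell line and construct, was measured on Affymetrix arrays. The table deposited by the authors holds log2 expression values of 33297 probe sets, running from 2.40 to 14.81, from which the log2 scale was read. The software was Affymetrix Expression Console 1.1.2800.28061, per the submitters' processing notes; summarization and normalization are not given in the sources used here. Scaling between arrays would hide a change in total RNA.

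By the platform annotation, 19460 probe sets list 1 gene, 1754 several and 12083 none. The probe set with the highest mean was kept for each of 18417 genes. Differences are FBP1 minus control, untested, and counted at 1.5-fold and 2-fold. The line difference was fitted with limma 3.58.1 in R 4.3.3 (terms for line and construct, intensity trend, 1 residual and 5.09 prior degrees of freedom), called at adjusted p under 0.05, and tested on simulated data. The labels give no replicate cultures. Members and lists were chosen with earlier results of these data known; named genes were the members, list genes past 1.5-fold or the largest 3, the nearest 5 by pattern and the 5 neighbours each side. Some list genes were named beyond this rule, after their values were seen. Promoter windows came from RefSeq (GRCh38.p14). Alternatives covered the filter, scaling, probe set averaging, variance prior, construct term, arrays and features. Summed levels are log2 of summed linear values.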

Additional observations from a re-analysis of the deposited data

Results flagged for a closer look

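Of 16 genes examined, the 10 SLCO genes and the list genes that differed by 1.5-fold with FBP1 in either line, 9 differed in opposite directions in the lines. With 1 array per group, these differences between the lines were not tested. Given as the Hs578T difference minus the MDA-MB231 difference in log2 units, the value was 3.04 for SLCO4C1, 0.68 for SLCO1B1, 0.65 for SLCO1C1, 0.64 for SLCO2A1, 0.44 for SLCO1B3 and 0.24 for SLCO3A1. It was 1.58 for PLA2G4A, −1.09 for SLC47A1 and −1.03 for CYP1B1. Several rest on levels within the olfactory receptor range, among them SLC47A1 in Hs578T and SLCO1B1 and SLCO1C1 throughout. Over all genes, 48.7% differed in opposite directions at any size.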

How the results depend on the processing

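The SLCO4C1 differences with FBP1 kept their direction under quantile normalization, median centring and averaging of probe sets, but with probe sets averaged they were −0.76 in MDA-MB231 and 0.99 in Hs578T, so that 0 members passed 2-fold in either line. Averaging brings in the dim second probe set. SLCO1B3, SLCO2A1 and SLCO5A1 were called higher in MDA-MB231 under each of the 7 alternatives fitted. The count called higher in Hs578T was 0, in place of 1, with no intensity trend in the variance prior and with all probe sets fitted; the cause was not tested. The 25th percentile filter (log2 6.161) left 7 of the 10 members. With the control or FBP1 arrays alone, the line difference of SLCO1B1 was 0.49 or −0.19. Of 239 values under alternatives, 223 kept their direction and side of the threshold or moved by less than the spread of olfactory receptor genes. The construct term pairs the arrays across lines; without it SLCO1B3, SLCO2A1, SLCO5A1 and SLCO3A1 were again the members called. The labels carry no replicate numbers. The absence of detection calls limits what can be said of levels near 6.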

Other observations

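An antisense transcript gene, SLCO4A1-AS1, has its own probe set and was singled out after its values were seen. Its log2 level was 8.98 (control) and 8.95 (FBP1) in MDA-MB231 and 7.12 and 7.02 in Hs578T. Both MDA-MB231 arrays lay above both Hs578T arrays, by 1.89 log2 units on average, whereas SLCO4A1 itself differed between the lines by 0.29. The Hs578T values of SLCO4A1-AS1 lie within the olfactory receptor range, so the size of its gap is uncertain. With FBP1, SLCO4A1-AS1 differed by −0.02 in MDA-MB231 and −0.10 in Hs578T.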
